A study of Mus musculus with 2 samples.

Results

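Tumour cells release exosomes, small vesicles that carry proteins and RNA to other cells. A miRNA is a short RNA of about the length of the sequences printed here. It pairs with the messages it represses mainly through its seed, bases 2 to 8 from its 5′ end. Each miRNA is cut from 1 arm of a hairpin precursor, and arms are named 5p and 3p. The 9 miRNAs described here have been linked to invasion, metastasis or hypoxia of solid tumours, and they are 9 of the 1881 mouse miRNAs on the array. They are mmu-miR-10b-5p, mmu-miR-31-5p, mmu-miR-22-3p, mmu-miR-210-3p, the pair mmu-miR-221-3p and mmu-miR-222-3p, and the cluster of mmu-miR-183-5p, mmu-miR-96-5p and mmu-miR-182-5p. They were chosen by name, and all 9 were found on the array.

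The RNA came from exosomes in the culture supernatant of LLC cells, a mouse Lewis lung carcinoma line, and each of 2 replicates was hybridized with Cy3 to 1 Agilent mouse miRNA microarray. The labels name no treatment of the cells and no engineered allele. The samples form 1 group, so no difference between conditions was tested and no p-value was computed. The labels do not say that the replicates came from separate cultures. The cells themselves and normoxic or hypoxic cultures were not analysed here, and the identity of the vesicles could not be checked against protein markers on a miRNA array.

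Several of the members have well-known targets or regulation. miR-210 is induced by the hypoxia-inducible factor HIF-1 and represses iron-sulphur cluster assembly factors of the mitochondrion. miR-10b lies among the Hoxd genes and is known for promoting invasion of breast carcinoma cells, whereas miR-31 restrains metastasis in that setting. miR-221 and miR-222 repress the cell cycle inhibitor p27 and the receptor Kit. The miR-183 cluster is best known from sensory cells and from repression of Foxo1. miR-21, shown for comparison, is raised in most solid tumours.

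The sequences are shown because seeds define which members could share targets and because near-identical miRNAs may share probes. They are the mature RNAs from RefSeq on build GRCm38.p6, written 5′ to 3′ with the seed in capitals. All 9 members matched by name.
mmu-miR-221-3p: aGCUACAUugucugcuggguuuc
mmu-miR-222-3p: aGCUACAUcuggcuacugggucu
mmu-miR-183-5p: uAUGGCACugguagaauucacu
mmu-miR-96-5p: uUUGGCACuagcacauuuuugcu
mmu-miR-182-5p: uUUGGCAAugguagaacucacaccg
mmu-miR-10b-5p: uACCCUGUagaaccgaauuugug
mmu-miR-10a-5p: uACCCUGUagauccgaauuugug
mmu-miR-31-5p: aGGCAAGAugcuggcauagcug
mmu-miR-22-3p: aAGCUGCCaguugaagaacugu
mmu-miR-210-3p: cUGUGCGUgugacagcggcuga
mmu-miR-21a-5p: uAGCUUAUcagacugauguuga

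mmu-miR-221-3p and mmu-miR-222-3p have the same seed, GCUACAU. Beyond the seed they diverge, and 11 of 23 positions are equal in all when counted from the 5′ end without gaps. Their hairpins lie on the minus strand of the X chromosome, chrX:19146294-19146388 and chrX:19146893-19146971, with 504 bases between them. The miR-183 cluster lies on the minus strand of chromosome 6 within 3820 bases. Its hairpins are at chr6:30169668-30169737 for Mir183, chr6:30169446-30169551 for Mir96 and chr6:30165918-30165992 for Mir182. mmu-miR-183-5p and mmu-miR-182-5p are the most alike pair of members, with 18 of 22 positions equal, although their seeds differ. The seeds of mmu-miR-96-5p and mmu-miR-182-5p are equal at 6 of 7 bases, as are those of mmu-miR-96-5p and mmu-miR-183-5p.

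The other 4 members are each alone at their locus among the members. Mir10b is at chr2:74726070-74726137 on the plus strand, Mir31 at chr4:88910557-88910662 on the minus strand, Mir210 at chr7:141221384-141221493 on the minus strand and Mir22 at chr11:75463716-75463810 on the plus strand. mmu-miR-10a-5p has the seed of mmu-miR-10b-5p, and 1 of 23 bases differs between them, at position 12. Whether their probes also bind the other miRNA was not tested. By base composition mmu-miR-210-3p stands at the top, with 63.6% G and C, and the other members range from 39.1% to 54.5%.

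Each member had 2 probes and each probe had 15 spots on an array. The deposited intensity of a spot is its fluorescence after background subtraction, so a spot without signal lies around 0 and can be negative. The 1000 negative control spots of each array give the background. After outliers were left out, they had a mean of 0.570 ± 2.48 (SD over 986 spots) in replicate 1 and 0.760 ± 2.72 (SD over 995 spots) in replicate 2, and their 95th percentiles were 4.73 and 5.23. The Feature Extraction software calls a probe detected when its total signal exceeds 3 times its error. In practice the dimmest detected probe with 15 spots had a mean intensity of 9.47 in replicate 1 and 9.71 in replicate 2. A 15-spot probe with a mean below these values was not called detected, which does not show that the miRNA was missing from the exosomes.

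None of the 9 members was called detected on either array. Of all 1881 miRNAs, 253 were detected in replicate 1, 223 in replicate 2 and 216, or 11.5%, on both. With 9 members, a count of 0 lies near that background and is no result about invasion or hypoxia miRNAs as a set. All 18 probes were below the limit on both arrays. The highest ratio of total signal to error was 2.53 in replicate 1 and 2.21 in replicate 2, where 3 was needed, and the lowest was -0.553 and -0.758. Nor was any member probe well above background in 50% of its spots. This stricter call counts spots by a flag of the software, and 133 miRNAs of the array passed it on both arrays.

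**Figure D1:**
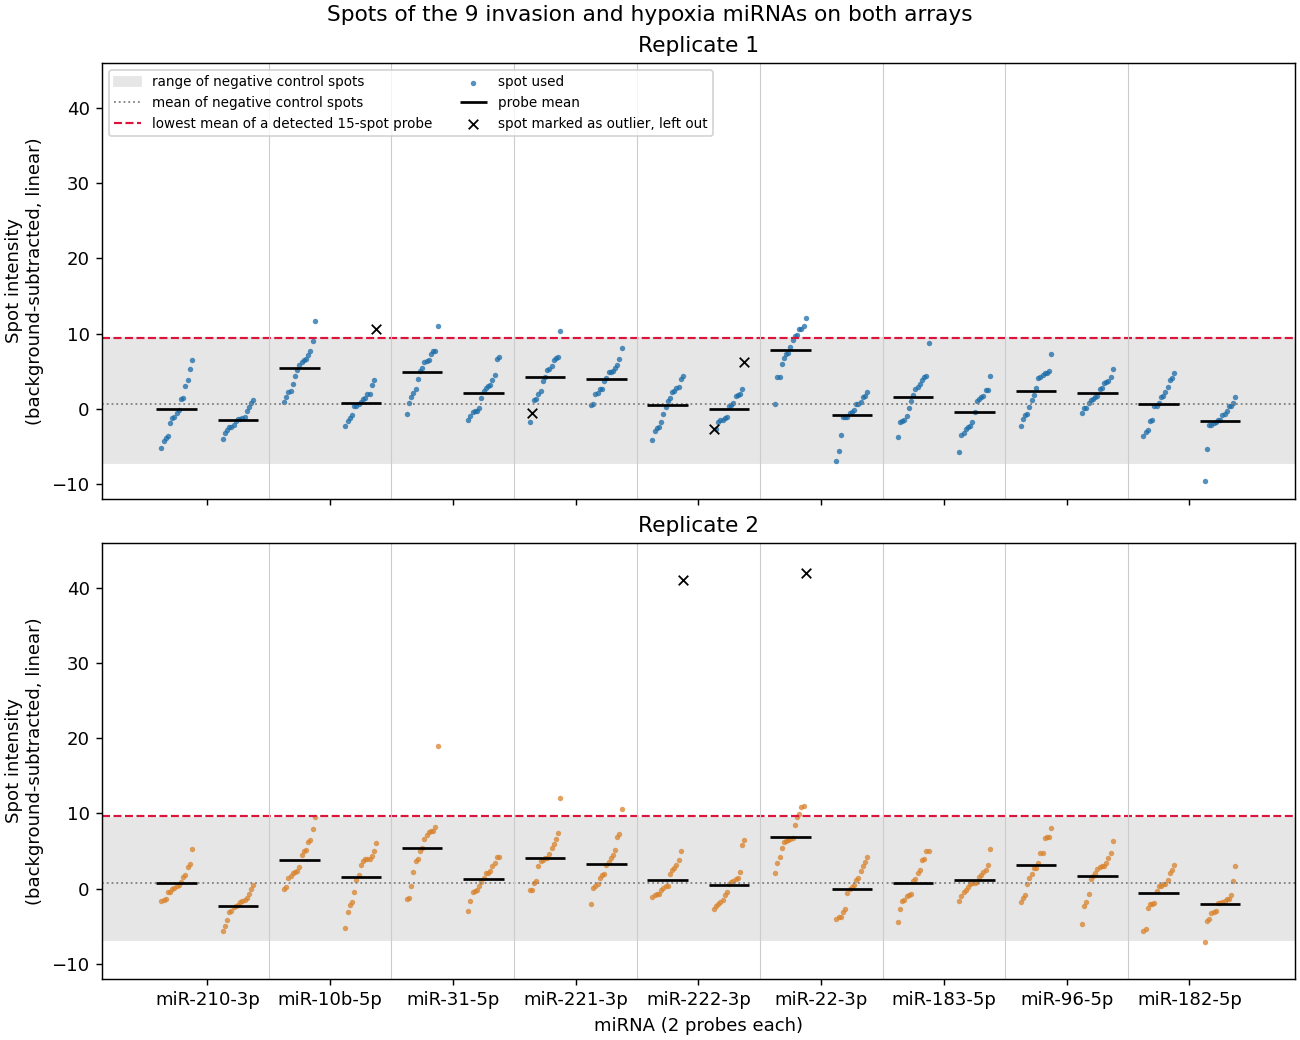
Intensity of every spot of the 9 members, with replicate 1 above and replicate 2 below and the 2 probes of each miRNA side by side, on a linear axis in intensity units. Points are spots ordered by value within a probe, crosses are spots marked as outliers, black bars are probe means, the grey band is the range of negative control spots and the dashed line is the lowest mean of a detected probe with 15 spots, 9.47 and 9.71. All probe means lie under the dashed line, the highest being 7.86 for a probe of miR-22-3p, and 2 outlier spots in replicate 2 stand above 40.

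The members were nevertheless not all alike. Averaged over its probes, mmu-miR-221-3p had the highest intensity, 4.09 in replicate 1 and 3.72 in replicate 2 (3.90 ± 0.267, SD, n = 2), and ranked 366 of 1881. mmu-miR-22-3p followed with 3.49 and 3.41 (3.45 ± 0.0592), and mmu-miR-31-5p with 3.49 and 3.33 (3.41 ± 0.118). mmu-miR-10b-5p had 3.03 and 2.72 (2.87 ± 0.217). These 4 miRNAs and mmu-miR-96-5p were above the other 4 members on both arrays without overlap. Within the group of 4, mmu-miR-22-3p and mmu-miR-31-5p overlapped over the arrays and are not ordered by these data. A rank here is one of signal and not of amount, since probes bind their miRNAs with different strength.

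mmu-miR-96-5p measured 2.24 in replicate 1 and 2.41 in replicate 2 (2.32 ± 0.122). mmu-miR-183-5p measured 0.537 and 0.927, and mmu-miR-222-3p 0.223 and 0.841. The last 2 overlapped with each other. mmu-miR-210-3p, the hypoxia miRNA, had -0.752 and -0.798 (-0.775 ± 0.0325), and mmu-miR-182-5p had -0.497 and -1.36 (-0.931 ± 0.614). Both were below the negative control mean on both arrays and their order changed between arrays. Over the members, intensity was higher in replicate 1 for 6 and higher in replicate 2 for 3.

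Most members were brighter than the median of the miRNAs that were detected on neither array. The median intensity of the members was 2.32, beside -0.0265 for the 1621 undetected miRNAs and 0.365 for all 1881. Of the 9, 7 were above the median of the undetected. Below the median of all miRNAs were 3 members in replicate 1 and 2 in replicate 2. With 9 members and no test this is a description and no result about the set. Yet 110 undetected miRNAs were brighter than mmu-miR-221-3p. The median of detected miRNAs was 18.7 in replicate 1 and 16.6 in replicate 2. No miRNA detected on both arrays was dimmer than the brightest member in replicate 1, and 3 were in replicate 2.

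**Figure D2:**
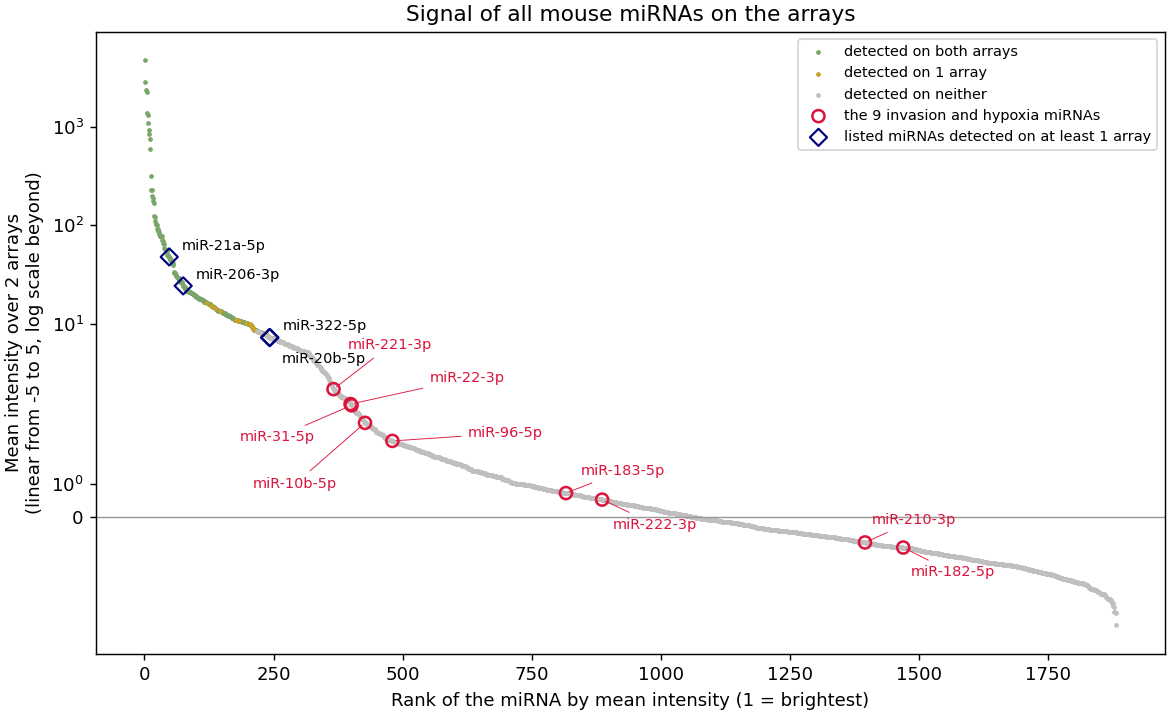
Mean intensity over both arrays of all 1881 miRNAs against their rank, with the intensity axis linear from -5 to 5 and logarithmic beyond. Red circles mark the 9 members, blue diamonds the 4 listed miRNAs detected on at least 1 array, and dot colours whether a miRNA was detected on both arrays, 1 or neither. The members run from rank 366 for miR-221-3p to rank 1469 for miR-182-5p, all among the undetected miRNAs, whereas miR-21a-5p ranked 48.

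The individual probes tell more than the means. For mmu-miR-22-3p, 1 probe had a mean of 7.86 in replicate 1 and 6.93 in replicate 2, and its signal was 2.53 and 2.21 times its error. Of its spots, 14 of 15 and 13 of 14 were positive and significant against the background. The other probe of the same miRNA had means of -0.878 and -0.113. The probe that stood out was therefore the closest of all member probes to the limit, while its partner showed no signal above the negative control mean. For mmu-miR-31-5p the brighter probe had 4.91 and 5.44 and the other 2.07 and 1.22. For mmu-miR-10b-5p the brighter probe had 5.36 and 3.84 and the other 0.700 and 1.60.

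mmu-miR-221-3p was the only member with both probe means above 3 on both arrays, with 4.25 and 4.13 for 1 probe and 3.94 and 3.30 for the other. Its shares of positive and significant spots were 62.1% in replicate 1 and 60.0% in replicate 2. The probes of mmu-miR-96-5p were likewise close to each other, at 2.36 and 3.13 for 1 and 2.11 and 1.69 for the other, but lower. In mmu-miR-210-3p, 1 probe had -0.0326 and 0.717 and the other -1.47 and -2.31. The probes of mmu-miR-182-5p had 0.660 and -0.635, and -1.65 and -2.09. No probe of these last members stood out on both arrays. For mmu-miR-183-5p, 1 probe had 1.55 and 0.776 and the other -0.478 and 1.08, so that their order changed between arrays. The probes of mmu-miR-222-3p had 0.444 and 1.16, and 0.00137 and 0.519. Of the 18 member probes, 3 in replicate 1 and 2 in replicate 2 had a mean above the 95th percentile of single negative control spots, and 7 and 6 were below the negative control mean.

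The probe pattern recurred on the second array. Across the 18 probe means, Pearson's r between the replicates was 0.940 and Spearman's rho was 0.928. The points share probe sequences, slide and scan session, and over the 3919 undetected probes of the array r was 0.862, so the members recurred much as other dim probes did. The part of probe sequence in it was not tested.

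**Figure D3:**
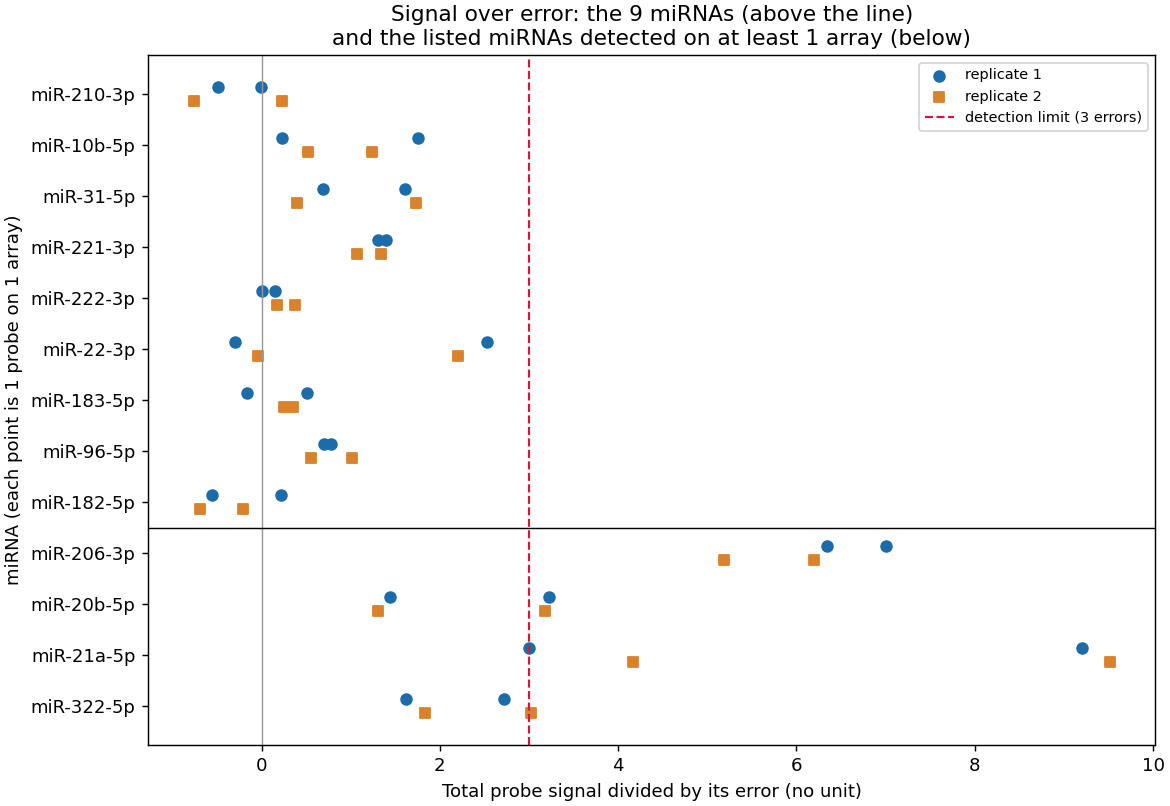
Total signal of a probe divided by its error, for each probe of the 9 members and, under the black line, of the 4 listed miRNAs detected on at least 1 array. Circles are replicate 1, squares are replicate 2 and the dashed line is the limit of 3. Member probes reach 2.53 at most, in miR-22-3p, and the brightest probe of miR-21a-5p reaches 9.20 and 9.51.

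Counted by spot, 87 of 266 member spots (32.7%) in replicate 1 and 91 of 268 (34.0%) in replicate 2 were positive and significant. The shares were 17.5% and 20.8% for negative control spots, 20.9% and 18.6% for the spots of undetected miRNAs, and 31.1% and 28.6% for all miRNA spots. Spots of 1 array are repeated measurements of 1 RNA sample, and no test was made on them. A looser call asks that 50% or more of the spots of a probe are positive and significant on both arrays. By this call 3 of the 9 members passed, mmu-miR-221-3p, mmu-miR-22-3p and mmu-miR-31-5p. Across the array 468 miRNAs passed, or 24.9%, so the count of members too lies near the background.

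A few single spots stood apart. In replicate 2, 1 spot of mmu-miR-22-3p at 42.1 and 1 of mmu-miR-222-3p at 41.1 stood far above the other spots of their probes, which reached 11.0 and 5.01. Both were marked as outliers by the software and left out. A spot of mmu-miR-31-5p at 19.0 in replicate 2 was not marked and was kept. It was the only spot of a member, among those kept, that was flagged well above background.

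Levels were also expressed as log2 of the signal over the 75th percentile of the array, which was 50.2 intensity units in replicate 1 and 40.0 in replicate 2 over the 393 probes detected on both arrays. mmu-miR-221-3p had the highest level among the members, -4.87 ± 0.66 (SD, n = 2). Set among the 216 miRNAs detected on both arrays it took rank 207. That rank is one of level and not of intensity. mmu-let-7e-5p and mmu-miR-106b-5p, detected on both arrays, ranked below it by level (-4.93 and -6.27) but were brighter, at 8.77 and 5.97. With the brightest probe alone mmu-miR-22-3p was highest, at -2.77, followed by mmu-miR-10b-5p at -4.12 and mmu-miR-221-3p at -4.58, so which member leads depends on how probes are summarised. mmu-miR-10b-5p was at -6.63 ± 0.21, mmu-miR-31-5p at -7.16 ± 0.16, mmu-miR-96-5p at -7.24 ± 0.09 and mmu-miR-22-3p at -7.78 ± 0.95. The other 4 members ranged from -10.55 for mmu-miR-183-5p to -14.97 for mmu-miR-210-3p.

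These levels must be read with their floor. A spot at or below 0 has no logarithm and was given the smallest scaled signal above 0 of its array, which lies far down, and values at the floor have no order. Of the member spots, 87 in replicate 1 and 93 in replicate 2 were at or below 0, from 1 of 29 for mmu-miR-221-3p to 21 of 30 for mmu-miR-210-3p in replicate 1. The levels therefore depend on how many such spots a miRNA has, and mmu-miR-22-3p, with 1 raised and 1 dark probe, comes next to mmu-miR-221-3p by intensity but after mmu-miR-96-5p by level. For this reason the intensities are given first here, a choice made after the values had been seen.

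Members encoded side by side did not give like signals. mmu-miR-221-3p exceeded mmu-miR-222-3p on both arrays, at 4.09 against 0.223 and 3.72 against 0.841. In the miR-183 cluster, mmu-miR-96-5p lay above mmu-miR-183-5p and mmu-miR-182-5p on both arrays. Since all of these signals were under the limit and come from different probes, no difference in amount can be read from them. The seed of mmu-miR-221-3p and mmu-miR-222-3p is also that of mmu-miR-1928, which was on the array and undetected at 0.380 and 0.478.

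The opposite arm of each member hairpin is read by probes of its own. None of the 9 other arms was detected either, so both arms of each hairpin were near background and no difference in amount can be read from their order, which is given as a description. The member arm was brighter than the other arm on both arrays in 6 of 9 hairpins. Among these were Mir10b, where mmu-miR-10b-3p averaged -1.09 over the arrays, Mir221, where mmu-miR-221-5p had 0.933 and 0.315, and Mir22, where mmu-miR-22-5p had 0.362 and 0.526. The member was dimmer on both arrays at Mir210, with -0.170 and -0.446 for mmu-miR-210-5p, and at Mir182, with -0.442 and 0.500 for mmu-miR-182-3p. At Mir222 the order changed between arrays. The paralog arm mmu-miR-10a-5p had 1.89 and 1.75, below mmu-miR-10b-5p on both arrays and likewise undetected.

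**Figure D4:**
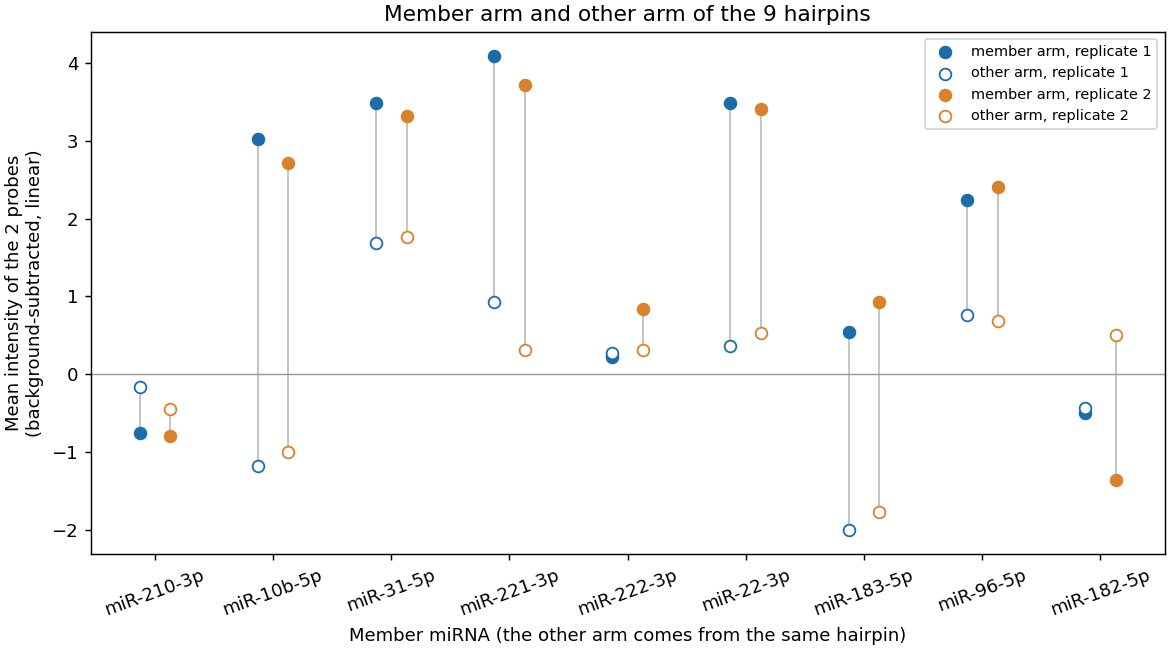
Mean intensity of the member arm (filled) and of the other arm of the same hairpin (open) for the 9 hairpins, with replicate 1 in blue and replicate 2 in orange, on a linear axis in intensity units. The member arm is above the other arm on both arrays in 6 hairpins and below it on both in miR-210 and miR-182. None of the 18 arms was detected on either array, so the order of arms near background is not one of amount.

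Other miRNAs linked to invasion or to hypoxia show what a detected miRNA looks like on these arrays. Of 16 others linked to invasion and metastasis, 2 were detected on both arrays, and of 8 others linked to hypoxia, 2 were. mmu-miR-21a-5p, mmu-miR-107-3p and mmu-miR-155-5p are in both lists, and of these only mmu-miR-21a-5p was detected. Across the array 216 of 1881 miRNAs, or 11.5%, were detected on both. In lists this small such counts are no result about invasion or hypoxia miRNAs. mmu-miR-21a-5p had 40.5 in replicate 1 and 54.9 in replicate 2 and ranked 48 of 1881, and all of its spots were positive and significant. Its probes differed too, at 71.6 and 95.9 for 1 and 9.47 and 14.0 for the other. mmu-miR-206-3p, best known from skeletal muscle, had 27.1 and 21.4 and ranked 75.

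The third was mmu-miR-20b-5p of the miR-17 family, at 7.30 and 7.16. Only 1 of its probes was over the limit, at 3.22 and 3.18 times its error, and the other was at 1.44 and 1.31. mmu-miR-322-5p, which stabilizes HIF-1 in hypoxic endothelium, was detected in replicate 2 only, at 6.71 and 7.73, with signals of 2.71 and 3.02 times the error. Together with the other arms and the miR-10a arms, 32 other miRNAs were listed, of which 3 were detected on both arrays and 28 on neither. That count of 3 lies near the 11.5% of all miRNAs detected on both. Among the undetected were the endothelial mmu-miR-126a-3p at -0.773 and -0.390, the smooth muscle mmu-miR-143-3p at -1.70 and -1.57 and mmu-miR-155-5p at 2.63 and 1.76.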

How the data were processed

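RNA from LLC exosomes was measured on 2 one-colour arrays of the same slide and scan session. The authors deposited the spot intensity given by Feature Extraction, background-subtracted and not normalized between arrays. File headers give version 10.7.1.1 and the submitters' processing notes 9.1. The labels describe a blood RNA kit, globin removal and amplified cRNA, which differs from the miRNA kit in the study's methods, and this was not settled. A second deposited table holds log2 values, whose making is not given in the sources used here and whose scale and centring are unknown. It served as an alternative only.

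Control spots and spots marked as outliers (1178 in replicate 1, 1134 in replicate 2) were left out, and 0 spots were saturated. Spots were averaged per probe and probes per miRNA. For levels, signals were divided by the 75th percentile of probe means over the probes detected on both arrays, spots without a positive value received the smallest positive one of that array, and the result was put on the log2 scale. A miRNA was called detected by the flag of the software. With 1 group of 2 arrays no test was made, and the number of arrays limits the precision. The computation was tested on simulated arrays. Levels were checked there for bright miRNAs only, not for signals as dim as those of the members. R 4.3.3 with limma 3.58.1 made the normexp correction, and all else used Python 3.11.15 with pandas 2.3.3, numpy 2.4.6 and scipy 1.17.1.

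The members and the lists of other miRNAs were chosen with earlier results of these data known. All members are named, with their other arms and paralogs, listed miRNAs that were detected and a few that were not, the last chosen after their values were seen. mmu-let-7e-5p and mmu-miR-106b-5p were named for their ranks, also after their values were seen. Because no member was detected, no miRNAs of similar pattern are named. Alternatives covered the detection call, scaling, background correction, outliers, probe summary, the deposited table and each replicate left out.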

Additional observations from a re-analysis of the deposited data

How the results depend on the processing

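The count of 0 members detected on both arrays was also obtained with 50% of spots well above background. It was 0 too with all probes over 3 times their error, with detection on at least 1 array and without either replicate (0 to 0). These last settings had to give 0, since no member and no member probe passed on either array. The count was 3 with 50% of spots positive and significant, and 1, mmu-miR-22-3p, with a probe over 2 times its error. That last call passed 302 of 1881 miRNAs (16.1%) and was chosen after seeing the data, so nothing rests on it. The files hold no flag for a detected probe, and signal over 3 times its error stood in for it. The rank of mmu-miR-221-3p, 207 among the detected miRNAs, was 216 with normexp background correction (offset 50), 209 with outlier spots kept, 217 with the brightest probe alone, 217 in the deposited table and 347 among all miRNAs. It ranged from 206 to 208 without 1 replicate. With the median spot it was 206, and with the mean of linear signals and quantile normalization 207. The percentile over all probes and no scaling cannot change a rank, since they shift all miRNAs alike, and left it at 207. Rank 217 lies below all 216 detected miRNAs. Another member led in both settings that gave 217. By brightest probe mmu-miR-22-3p (-2.77) and mmu-miR-10b-5p (-4.12) were above mmu-miR-221-3p (-4.58), and in the deposited table mmu-miR-10b-5p (-1.57), mmu-miR-96-5p (-1.62) and mmu-miR-183-5p (-1.72) were above it (-2.08), and mmu-miR-22-3p and mmu-miR-222-3p (both -2.07) lay beside it. The levels of all 9 members moved by more than the replicate SD with the percentile over all probes and with no scaling. These 2 settings change only the divisor of an array and shift all miRNAs alike, so this is a change of unit. All 9 also moved by more with quantile normalization, normexp, the mean of linear signals per probe and the deposited table. Quantile-normalized levels were not divided by the percentile either, so their move includes the same change of unit. Beside the levels with no scaling they were closest for mmu-miR-183-5p (-5.05 against -5.06) and farthest for mmu-miR-210-3p (-8.92 against -9.49). With the brightest probe 8 did, and with the median spot 7. The levels of all 9 moved by less than the SD with outlier spots kept and without either replicate. Leaving out 1 of 2 replicates always moves their mean by less than their SD, so that setting shows no stability. Total miRNA signals and sums over detected probes gave no values, since the software writes a fixed placeholder for undetected miRNAs. No paired analysis was possible because all samples belong to 1 group.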

Other observations

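In the deposited table of log2 values, the lowest value is also the median of both columns, -3.32, and 312 of 1881 miRNAs (16.6%) were above it in each column. Of the members, 3 were above the lowest value in replicate 1 and 7 in replicate 2, although the scanner files call none of them detected. mmu-miR-10b-5p had -2.20 and -0.94, mmu-miR-183-5p -2.18 and -1.25, and mmu-miR-96-5p -2.12 and -1.12. In replicate 2 only, mmu-miR-210-3p had -0.84, mmu-miR-221-3p -0.84, mmu-miR-222-3p -0.81 and mmu-miR-22-3p -0.83. mmu-miR-31-5p and mmu-miR-182-5p were at the lowest value in both. Of the 1621 miRNAs detected on neither array, 56 (3.45%) were above the lowest value in replicate 1 and 68 (4.19%) in replicate 2. The table thus places mmu-miR-210-3p beside mmu-miR-221-3p in replicate 2, where their intensities in the scanner file were -0.798 and 3.72.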
